A study of Rattus norvegicus with 300 samples.

Results

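Raphe tissue of rats given desipramine, in 5 libraries, was compared with 5 libraries of the same tissue from rats given plain water. They were taken from a count table by their labels, region Raphe and treatment Desipramine or Control, and make up 10 of its 300 libraries. All rats were male Long Evans, 60 days old, and drank their treatment for 3 weeks. The drug was dosed at 7.5 mg/kg/day in the drinking water, and Control rats drank water alone. A further 3 Raphe groups of 5 libraries each serve as references: Maltodextrin (10 g/L of this sugar in the water), FT at 13 mg/kg/day, the dose listed for fluoxetine, although the labels do not spell FT out, and Bupropion at 15 mg/kg/day. A sixth Raphe group of 5 libraries, Probiotics, entered the joint fit and 1 plot but no comparison. All groups were intact animals with no genetic change named in the labels. Tissue punches were pooled by region before RNA extraction. The number of rats in a pool was not stated there, so each p-value reflects variation among libraries alone, which may be technical. For the Raphe comparisons that variation was estimated jointly over the libraries of all Raphe groups, not only of those compared.

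The raphe nuclei lie along the midline of the brainstem and hold most of the brain's serotonin neurons, which make serotonin from tryptophan through the enzymes Tph2 and Ddc, pack it into vesicles with Slc18a2 and take it back up through the transporter Slc6a4. The 5-HT1A receptor, encoded by Htr1a, sits on these neurons as a brake on their firing. Desipramine is a tricyclic antidepressant that blocks the noradrenaline transporter Slc6a2 far more than the serotonin transporter. That transporter is made in noradrenaline neurons, such as those of the locus coeruleus, which send fibres into the raphe.

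Depth was 8056671 to 13673800 counts per Desipramine library and 12935701 to 16235135 per Control library. The 10 libraries carried their region's markers: before scaling, Tph2 stood between 723.5 and 809.8 CPM, the counts per 1000000 counts of the library, in Desipramine and between 730.9 and 791.4 in Control, against at most 35.3 in any library of another region. The myelin gene Mbp alone took 2.89 to 4.11% of the counts in Desipramine and 7.03 to 8.03% in Control, so the levels below are CPM scaled by TMM factors, which offset such shifts (1.04 to 1.11 in Desipramine, 0.853 to 0.916 in Control). Scaling on total counts alone would raise the median log2 change of all genes from -0.02 to 0.26. A gene was called higher or lower at an adjusted p under 0.05, from the quasi-likelihood test of edgeR with p-values adjusted by Benjamini-Hochberg over 12201 genes.

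A majority of all tested genes differed between Desipramine and Control. The test called 3512 genes higher (28.8%) and 3792 lower (31.1%), together 59.9%, and 48.1% of the called genes were higher. On total counts alone, 76.5% of 7716 called genes were higher. Most changes were small, with a median size of 0.49 on the log2 scale among called genes, and 213 higher and 472 lower genes passed 2-fold. The levels of the 5 and 5 libraries did not overlap for 44.9% of genes. A call by itself therefore says little here, and each group of genes below is read against these shares. Maltodextrin rats, which had no drug, also differed from Control at 4064 genes (33.3%). For that reason the change against Maltodextrin, at 5114 called genes (41.9%), is also given for the named genes whose direction or call it changes. Both comparisons use the same Desipramine libraries and are not independent.

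**Figure D1:**
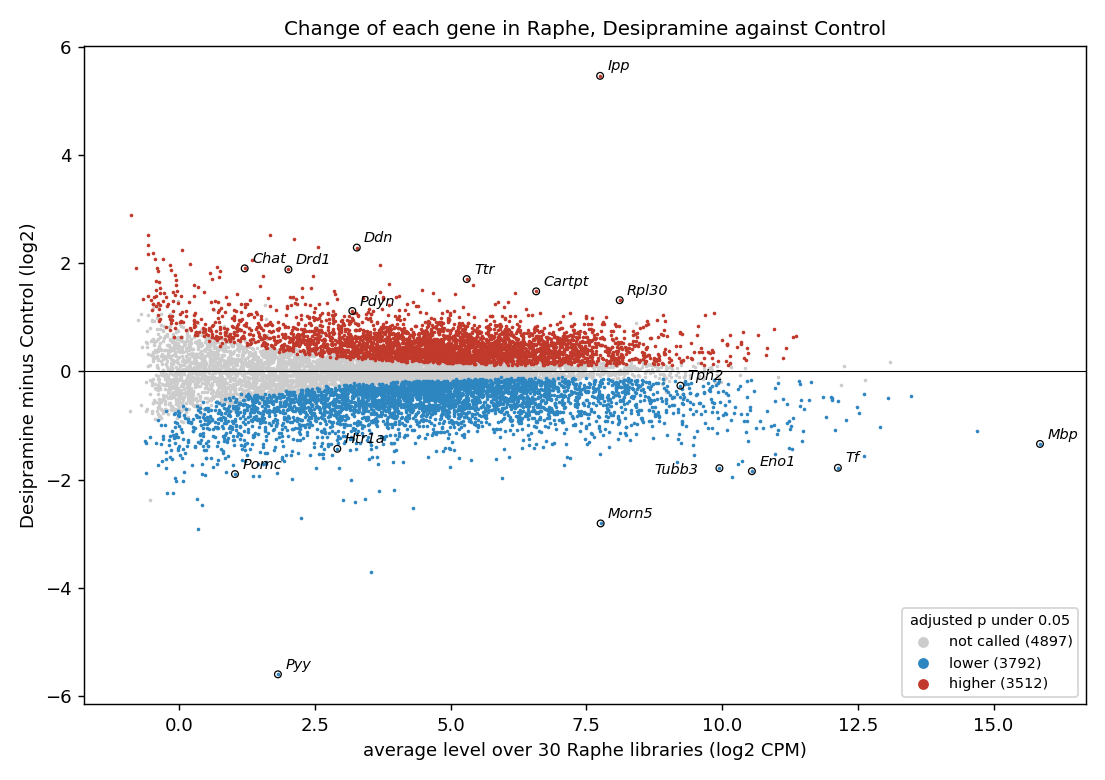
Log2 change of Desipramine against Control (vertical axis) by the average log2 CPM over the 30 Raphe libraries (horizontal axis), 1 point per gene, red for the 3512 genes called higher, blue for the 3792 called lower and grey for the rest. Labelled genes are described in the text, and the point of Ipp at the top rests on 1 library.

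Among the genes that define serotonin neurons, Tph2 was lower, and the transporters Slc6a4 and Slc18a2 were not called, while the autoreceptor gene Htr1a fell. Of 18 listed serotonin neuron genes 16 were tested, of which 3 were called higher and 6 lower, a share of 56.2% that is close to that of all genes. Their median log2 change was 0.04 against Control and 0.26 against Maltodextrin. Their summed level was 5056 to 5502 CPM in Control and 3145 to 3484 CPM in Desipramine. A sum is set mainly by the most abundant members, here Qdpr (log2 change -1.06, described below). It does not describe a typical gene of the list. Tph2, the enzyme that sets the rate of serotonin synthesis in the brain, stood at 928, 848, 849, 798 and 823 CPM in the Control libraries and at 724, 683, 737, 692 and 702 CPM in the Desipramine libraries. All Desipramine values were below all Control values, a log2 change of -0.26 (SE 0.062, edgeR adjusted p = 0.00044). This direction depended on the scaling and on the reference group: on total counts the change was 0.02, and against Maltodextrin, with a mean of 504 CPM, Tph2 was higher by 0.49 (adjusted p = 1.23e-07). Slc6a4, the serotonin transporter, stood at 144, 146, 141, 134 and 135 CPM in Control and 159, 147, 152, 139.7 and 147 CPM in Desipramine. These ranges overlapped, and the change of 0.09 was not called (adjusted p = 0.0916), although it was called against Maltodextrin at 0.57. The vesicle transporter Slc18a2 (log2 change 0.04, adjusted p = 0.603), the second synthesis enzyme Ddc (0.08, adjusted p = 0.177) and the transcription factor Fev that sets serotonin identity (0.05, adjusted p = 0.788) were also not called. On total counts these 4 genes were called higher, Slc6a4 by 0.37 (adjusted p = 5.05e-08), Slc18a2 by 0.32 (0.000148), Ddc by 0.36 (3.59e-07) and Fev by 0.33 (0.044). In bulk tissue, fewer cells of a type and less RNA per cell cannot be told apart.

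Htr1a, the gene of the 5-HT1A receptor, was lower in every Desipramine library. Its level was 12.6, 10.96, 10.0, 10.2 and 12.2 CPM in Control and 4.64, 3.75, 3.14, 5.49 and 3.48 CPM in Desipramine, with the highest Desipramine library below the lowest Control library. The log2 change was -1.43 (SE 0.14, edgeR adjusted p = 1.06e-10), and it was -0.84 against Maltodextrin (adjusted p = 2.1e-05). The level did not differ from that in FT (mean 3.93 CPM) beyond the spread between libraries, with a difference of 0.04 and an adjusted p of 0.888, and it lay below that in Bupropion (mean 7.55 CPM), with a difference of -0.86. Enzymes that supply tetrahydrobiopterin, the cofactor of Tph2, moved in opposite directions. Qdpr, which regenerates the cofactor, fell from a mean of 3559 to 1701 CPM (log2 change -1.06), and Pts, which makes it, rose from 14.1 to 21.1 CPM (0.58). Spr, the last enzyme of that synthesis, was called lower at -0.40 (adjusted p = 0.044), but this call was lost with DESeq2, on total counts and without any of 7 single libraries. Among the transcription factors of these neurons, Gata2 rose by 0.40 and Gata3 fell by 0.61 on the log2 scale. The call of Gata3 was lost on total counts (-0.34, adjusted p = 0.0957) and with Maltodextrin pooled with Control (-0.37, adjusted p = 0.0822).

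**Figure D2:**
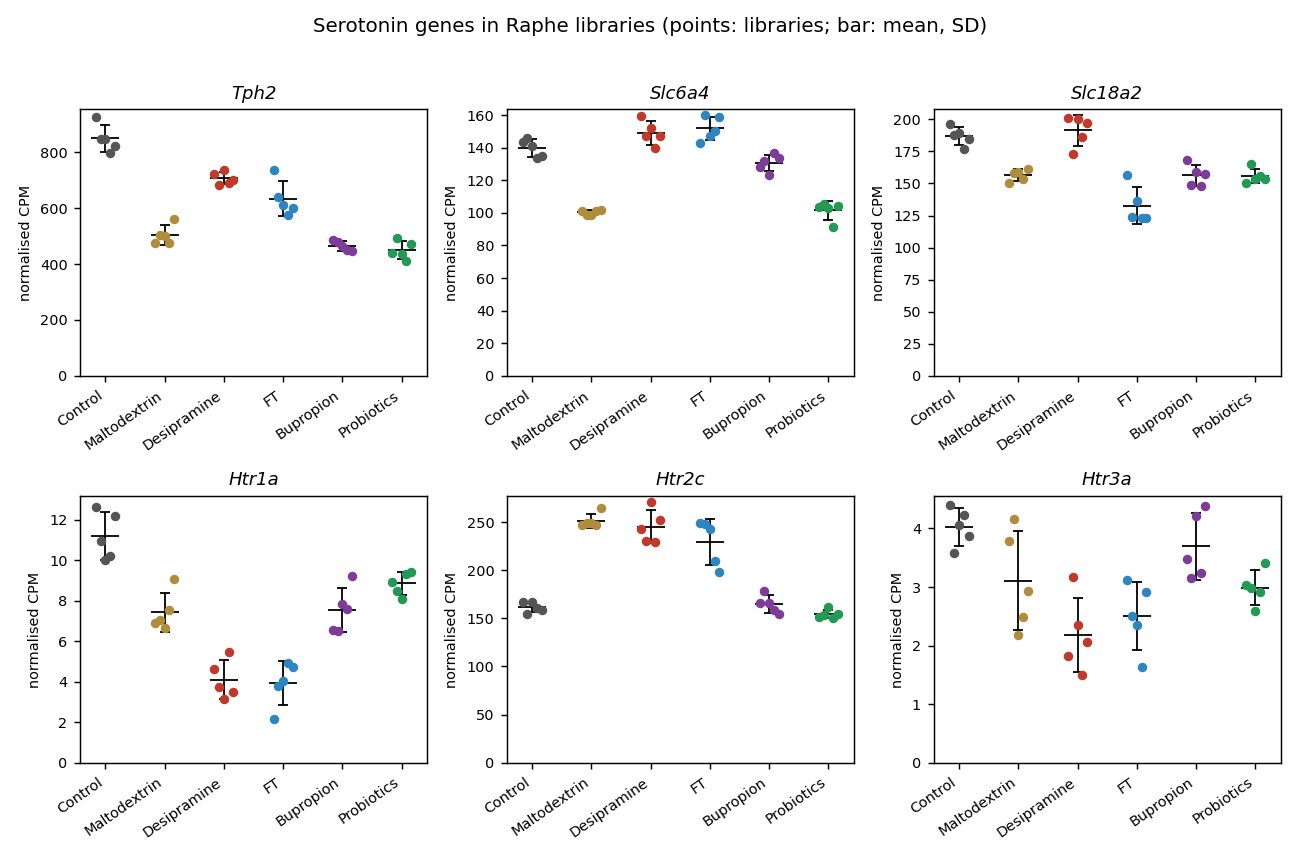
TMM-scaled CPM of 6 serotonin genes (vertical axes) in the 5 Raphe libraries of each of the 6 treatments, with points for libraries and bars for mean and SD. Desipramine lies near Control for Slc6a4 and Slc18a2, below it for Tph2, Htr1a and Htr3a, and above it for Htr2c, where Maltodextrin is as high.

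Of 13 tested serotonin receptor genes 2 were called higher and 5 lower. That called share, 53.8%, was below the 59.9% of all genes. Their median log2 change was -0.15 against -0.02 for all genes. Besides Htr1a, the ion channel receptor Htr3a fell from a mean of 4.03 to 2.18 CPM (log2 change -0.93, adjusted p = 3.75e-05). Htr7 fell from 3.62 to 2.15 CPM (-0.76) and Htr5a from 3.29 to 2.03 CPM (-0.67, not called on total counts). Htr2c, a receptor on many local interneurons, rose from 167, 155, 167, 161 and 158 CPM in Control to 243, 231, 271, 229.8 and 253 CPM in Desipramine, with no overlap (0.60, adjusted p = 1.58e-10). Its mean in Maltodextrin was 252 CPM, and the difference between Desipramine and Maltodextrin was -0.04 (adjusted p = 0.651).

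The genes that break down and clear monoamines split evenly, with 4 higher and 4 lower of 9 tested. Maoa, which degrades serotonin and noradrenaline, was lower by 0.24 and Maob by 0.18 on the log2 scale, but on total counts both stood slightly higher (0.04 and 0.10, neither called), and Maob was higher than in Maltodextrin by 0.26. Akr1b1 and Aldh2, which process the aldehydes formed by these oxidases, fell by 0.41 and 0.44, and neither was called on total counts (-0.13, adjusted p = 0.05, and -0.16, adjusted p = 0.161). Slc22a3, a low-affinity monoamine transporter, rose from a mean of 1.74 to 3.04 CPM (0.83, adjusted p = 0.000697).

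The direct target of the drug was almost undetected in these punches. Slc6a2 stood at 0.289, 0.304, 0.432, 0.580 and 0.144 CPM in Control and 0.141, 0.234, 0.224, 0.249 and 0.632 CPM in Desipramine, and Dbh, the enzyme that makes noradrenaline, at 0.650 to 1.15 CPM in Control and 0.237 to 0.704 CPM in Desipramine. Both were below the filter and were not tested, while up to 128.1 CPM of Slc6a2 was counted in LConly, the locus coeruleus samples. Of 12 listed noradrenaline neuron genes 6 were tested, and the single call was Th, which dopamine neurons also make. Th was lower by 0.21 (adjusted p = 0.0143) against Control, higher by 0.30 against Maltodextrin and higher by 0.07 on total counts, so its direction depended on the reference group and the scaling. Adrb1 was not tested, with at most 0.141 CPM in any of the 10 libraries. Among the 6 adrenergic receptors tested, 1 was called. Adra1d rose from 1.01, 1.29, 1.64, 1.74 and 1.22 CPM to 1.83, 2.93, 1.46, 2.33 and 2.13 CPM (0.63, adjusted p = 0.0211). Its ranges overlapped, and the call was lost without Desipramine replicate 2 (adjusted p = 0.0702) or Control replicate 1 (adjusted p = 0.0536). The excitatory receptor Adra1b (0.26, adjusted p = 0.291) and the autoreceptor Adra2a (0.19, adjusted p = 0.13) were not called. On total counts both were called higher, Adra1b at 0.54 (adjusted p = 0.0221) and Adra2a at 0.47 (adjusted p = 0.00106), and Adra2a was also called without Desipramine replicate 1, at 0.28 (adjusted p = 0.026). Adra1a, at -0.62 (adjusted p = 0.0563), was close to the threshold. Of 5 tested genes of the corticotropin-releasing hormone system, edgeR called 0, with 0 at an unadjusted p under 0.05 and 0 called by DESeq2.

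Of 10 tested dopamine genes 5 were higher and 2 lower. The dopamine transporter Slc6a3 fell from 104, 104.7, 112, 104 and 123 CPM to 68.6, 60.7, 64.0, 70.8 and 70.8 CPM, with no overlap (-0.71, adjusted p = 2.52e-08), and by 0.59 against Maltodextrin. Drd2, a receptor found both on dopamine neurons and on striatal neurons, rose from 12.8, 13.2, 12.2, 11.01 and 11.8 CPM to 19.6, 21.2, 18.8, 20.5 and 19.04 CPM (0.70, adjusted p = 3.96e-09). Foxa2, a transcription factor of ventral midbrain neurons, rose by 0.57, with no difference from Maltodextrin at the threshold (0.05, adjusted p = 0.785).

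Cartpt, Pdyn, Nts and Vip were among the peptide genes that rose. Of 20 tested neuropeptide genes 8 were higher and 4 lower, a called share of 60% that is close to that of all genes, with a median log2 change of 0.27. Cartpt, which encodes the CART peptides, stood at 76.3, 69.0, 63.9, 79.7 and 71.4 CPM in Control and 218, 210.0, 189, 202 and 185 CPM in Desipramine. Every Desipramine library held more than 2 times the level of the highest Control library, and the log2 change was 1.48 (SE 0.091, edgeR adjusted p = 5.41e-15). Maltodextrin was lower than Control at this gene, so the change against it was larger, 2.16. Pdyn, the precursor of the dynorphins, rose from 6.72, 8.67, 7.42, 6.29 and 7.68 CPM to 15.6, 14.5, 16.02, 14.9 and 18.6 CPM (1.12, adjusted p = 2.6e-11) and by 1.08 against Maltodextrin. Neurotensin (Nts) rose by 0.70 and vasoactive intestinal peptide (Vip) by 0.75. Tac1, the substance P precursor, rose by 0.50 against Control but was lower than in Maltodextrin by 0.49. In the other direction, the nociceptin precursor Pnoc fell by 0.51 and somatostatin (Sst) by 0.32, neither of which differed from Maltodextrin at the threshold, and Sst was not called on total counts (-0.0395). Pomc, at 1.29 to 3.23 CPM in Control and 0.395 to 0.820 CPM in Desipramine, fell by 1.90.

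Growth factor and activity-linked genes also moved. Vgf, a secreted protein induced by neurotrophins and by neuronal activity, stood at 11.99, 14.8, 14.9, 17.0 and 14.4 CPM in Control and 30.4, 34.7, 32.8, 28.7 and 30.1 CPM in Desipramine, with a log2 change of 1.10 (adjusted p = 2.4e-12) and of 0.78 against Maltodextrin. Bdnf rose only slightly, from a mean of 23.2 to 27.1 CPM (0.22, adjusted p = 0.0168). That call was lost without Desipramine replicate 3 (adjusted p = 0.0576) or 5 (adjusted p = 0.0838), and Bdnf did not differ from Maltodextrin at the threshold. Its receptor Ntrk2 rose by 0.25. Of 13 tested immediate early genes 8 were higher and 3 lower, with a median log2 change of 0.59 against -0.02 for all genes. Homer1, a scaffold of glutamate receptors whose short form is induced by activity, rose from 26.6, 25.7, 29.8, 27.6 and 25.99 CPM to 53.5, 54.0, 56.4, 52.9 and 55.2 CPM (1.00, adjusted p = 2.44e-13). Jund, Jun and the nuclear receptor Nr4a3 rose by 0.90, 0.59 and 1.07. Fos moved the other way, from 4.26, 5.63, 5.35, 5.30 and 5.38 CPM to 4.502, 4.45, 3.36, 3.66 and 2.92 CPM, with overlapping ranges (-0.45, adjusted p = 0.0113), and so did Btg2 (-0.61) and Dusp1 (-0.23). On total counts Fos (-0.18) and Btg2 (-0.33) were not called and Dusp1 stood at 0.05, and the call of Dusp1 was also lost without Control replicate 3 (adjusted p = 0.0873).

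**Figure D3:**
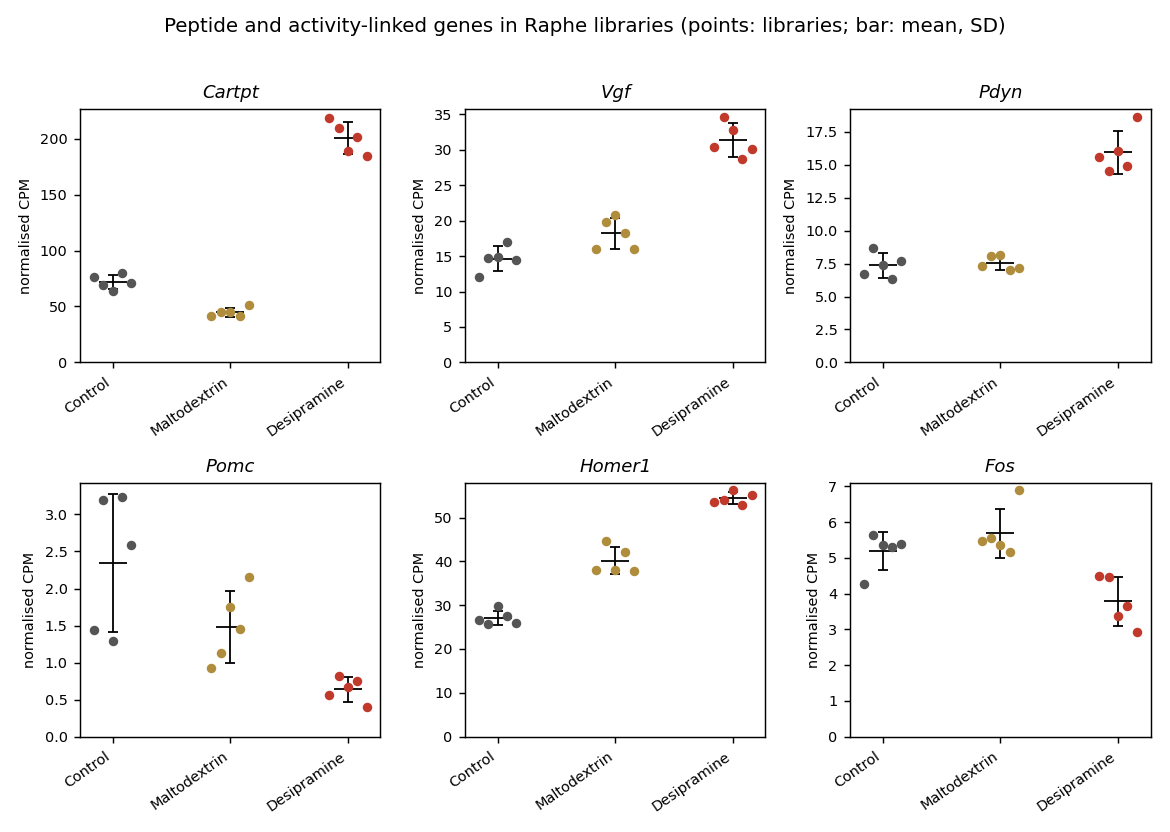
TMM-scaled CPM of 4 peptide genes (Cartpt, Vgf, Pdyn, Pomc) and 2 activity-linked genes (Homer1, Fos), vertical axes from 0, in the 5 libraries each of Control, Maltodextrin and Desipramine, with bars for mean and SD. Desipramine libraries lie above all others for Cartpt, Vgf, Pdyn and Homer1 and below all others for Pomc.

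Genes of this kind are often switched on by cyclic AMP through the element TGACGTCA, which the factor CREB binds. The letters were searched in RefSeq promoter windows (GRCr8) of 300 bases, from 250 before to 50 after the gene start. The motif is its own reverse complement, so 1 search covers both strands. Of the genes named so far, 8 hold it in their window: 3 were called higher (Vgf, Cartpt, Jund), 4 lower (Dusp1, Btg2, Sst, Th) and 1 was not called (Slc18a2). The stretches around it, with the motif in capitals, are shown for the 5 peptide and activity-linked genes that hold it before their start. In Sst, not shown, it lies after the RefSeq start that sets the window, which need not be the start used in this tissue.
Vgf (chr12:25277079-25277134, minus strand): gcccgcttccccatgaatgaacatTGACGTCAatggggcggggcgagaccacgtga
Cartpt (chr2:32991346-32991401, minus strand): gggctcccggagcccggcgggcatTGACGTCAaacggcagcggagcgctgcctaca
Jund (chr16:18769961-18770016, minus strand): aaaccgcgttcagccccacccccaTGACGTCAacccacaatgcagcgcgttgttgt
Dusp1 (chr10:17184705-17184760, plus strand): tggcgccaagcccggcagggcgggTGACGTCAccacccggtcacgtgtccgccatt
Btg2 (chr13:48087860-48087915, minus strand): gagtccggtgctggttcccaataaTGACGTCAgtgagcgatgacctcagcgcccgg
The same letters stood before genes that rose and genes that fell. Over all 9208 tested genes with a window, 3.24% held the motif. The share was 3.15% among genes called higher, 3.86% among genes called lower and 2.81% among genes not called.

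The cyclic AMP pathway itself split, with 10 of 26 tested genes higher and 9 lower. Among the subunits of protein kinase A, the regulatory subunit Prkar1a fell from 577, 519, 549.8, 509 and 486 CPM to 293, 300.3, 255, 310.3 and 291 CPM (-0.87) and the catalytic subunit Prkacb by 0.82, while the neuronal regulatory subunit Prkar2b rose from a mean of 21.9 to 43.5 CPM (0.99). The phosphodiesterase Pde4b, which breaks down cyclic AMP, fell by 0.65, and Gnas, the stimulatory G protein, rose by 0.63. Of 16 tested glucocorticoid targets 6 were higher and 4 lower. The receptor gene Nr3c1 rose by 0.50 and Fkbp5 by 0.27 (adjusted p = 0.0184, and 0.0628 without Desipramine replicate 2), whereas Tsc22d3 and Mt1a, which glucocorticoids induce, fell by 0.33 (not called on total counts) and 1.19.

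Transmitter genes of the other neurons in the punch changed in both directions, at times within a single pathway. Of 19 GABA and glycine genes 4 were higher and 12 lower. The GABA-synthesizing enzymes parted: Gad1 rose from 198, 197, 200.4, 193 and 177 CPM to 342, 296, 363, 298 and 324 CPM (0.75, adjusted p = 5.2e-12). Gad2 fell from 326, 314, 336, 319.6 and 283 CPM to 170.0, 166, 176, 170.3 and 196 CPM (-0.85, adjusted p = 2.13e-13). For both, Desipramine and Control did not overlap and the direction held against Maltodextrin. The vesicle transporter Slc32a1, shared by both transmitters, rose by 0.84. The glycine transporter Slc6a5 fell from a mean of 120.3 to 67.7 CPM (-0.83), with 248 CPM in Maltodextrin. The glycine receptor subunit Glrb and the glial GABA transporter Slc6a11 fell by 0.87 and 1.07.

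Of 18 glutamate neuron genes 7 were higher and 4 lower. Slc17a6, the vesicular transporter of most brainstem glutamate neurons, rose by 0.51 against Control, with a mean of 187 CPM in Maltodextrin (difference -0.13, adjusted p = 0.121). Slc17a8, the form that serotonin neurons carry, was not called (-0.14, adjusted p = 0.319). Of 13 cholinergic genes 6 were higher and 3 lower. Chat, which makes acetylcholine, went from 0.939, 0.761, 1.29, 0.414 and 0.933 CPM to 3.17, 2.93, 3.25, 3.24 and 3.71 CPM (1.90, adjusted p = 2.91e-09), and the choline transporter Slc5a7 from 12.3, 12.6, 13.7, 11.9 and 12.2 CPM to 28.9, 27.3, 30.6, 29.1 and 28.6 CPM (1.20, adjusted p = 1.24e-12). Slc18a3, the vesicular acetylcholine transporter, was counted at 0 to 0.173 CPM in Control and 0.336 to 0.820 CPM in Desipramine. The nicotinic subunit Chrnb2 fell from a mean of 27.1 to 11.6 CPM (-1.21), and the muscarinic receptor Chrm1 rose from 0.627 to 2.09 CPM (1.71).

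Ion channel genes moved in both directions. Among pacemaker and potassium channels 11 of 24 were higher and 7 lower, and among sodium and calcium channels 11 of 21 were higher and 5 lower, against 28.8% and 31.1% of all genes. Hcn2, a pacemaker channel, rose from 34.6, 33.3, 35.7, 47.1 and 39.5 CPM to 80.1, 80.5, 81.6, 70.7 and 75.1 CPM (1.03, adjusted p = 2.17e-12). The T-type calcium channel Cacna1g, the calcium channel subunit Cacnb4 and the A-type potassium channel Kcnd3 rose by 0.91, 0.75 and 0.50. Kcnn1, a calcium-activated potassium channel, fell from a mean of 3.33 to 1.33 CPM (-1.34), and Kcna1 and the sodium channel subunit Scn2b fell by 0.56 and 0.92. The transcripts of vesicle release were more often lower than higher, with 11 lower and 4 higher of 22. Their median log2 change was -0.22 against Control and -0.09 against Maltodextrin, which itself stood at -0.17 against Control. Syt11 fell by 1.13 (adjusted p = 1.23e-16), Vamp1 by 0.92 and Snap25 by 0.54, while Vamp2 rose by 0.65. Of 17 neurofilament and axon genes 10 were lower and 4 higher. The tubulins Tubb3, Tuba4a and Tuba1a fell by 1.79, 1.36 and 1.09. Tubulins, ribosomal proteins and the RT1 genes belong to families of near-identical copies, and the counting of reads shared between copies is not described in the labels, so values of single members are uncertain.

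Most genes of striatal neurons were higher in Desipramine. Of 20 genes of striatal projection neurons, a list added after values were seen, 17 were higher and 1 lower, with a median log2 change of 0.98 against Control and 1.04 against Maltodextrin. Their summed level was 378.2 to 397.4 CPM in Control and 635.1 to 655.7 CPM in Desipramine, and none was at 0 in any Desipramine library. Ddn, which encodes the dendritic protein dendrin, went from 4.12, 4.34, 4.32, 4.47 and 5.03 CPM to 19.8, 25.9, 23.6, 22.1 and 18.3 CPM (2.29, adjusted p = 2.56e-17). The D1 dopamine receptor Drd1 went from 2.67, 2.74, 2.33, 3.15 and 3.37 CPM to 10.7, 11.6, 11.4, 8.64 and 10.7 CPM (1.88). In neither did a Desipramine library reach the Control range. Bcl11b, Arpp21, Ppp1r1b and the adenosine receptor Adora2a rose by 1.76, 1.45, 1.28 and 1.13. The added CPM of Drd1, Ppp1r1b and Arpp21 amounted to 3.73, 3.87 and 3.19% of their mean level in the NACShell (nucleus accumbens) Control libraries. Dlx1 and Lhx6, transcription factors of forebrain GABA neurons, and Fezf2, one of deep cortical neurons, rose by 2.24, 2.52 and 2.34. These genes were picked after values were seen, and Lhx6 reached only 1.74 CPM in its highest Desipramine library. Of the cortical neuron list 6 of 10 were higher and 1 lower. The lower one was Slc17a7, a vesicular glutamate transporter, at 28.2 to 33.6 CPM in Control and 17.9 to 23.9 CPM in Desipramine (-0.48, not called on total counts).

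Some genes that mark position along the brainstem moved as well. Of 9 tested genes 1 was higher and 4 lower, a called share of 55.6% against 59.9% of all genes. The median log2 change of the list was -0.31 against Control and -0.06 against Maltodextrin. Maltodextrin itself stood at 0.26 against Control. Hoxb3 was at 0.837 to 1.41 CPM in Control and 0.211 to 0.395 CPM in Desipramine (-1.92, adjusted p = 7.47e-05). Hoxd3 was at 0.518 to 1.22 CPM and 0 to 0.352 CPM (-2.36). Both lie among the genes that pattern the hindbrain behind its front segments, and Hoxa2 fell by 0.65 (not called on total counts). En2, which marks the midbrain-hindbrain border, rose from 2.46, 3.65, 3.11, 2.73 and 4.38 CPM to 8.37, 7.97, 6.83, 7.23 and 7.98 CPM (1.23, adjusted p = 9.17e-08). The part that these forebrain and position genes have in the other results, the peptide, cholinergic and Gad1 changes included, was not tested.

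**Figure D4:**
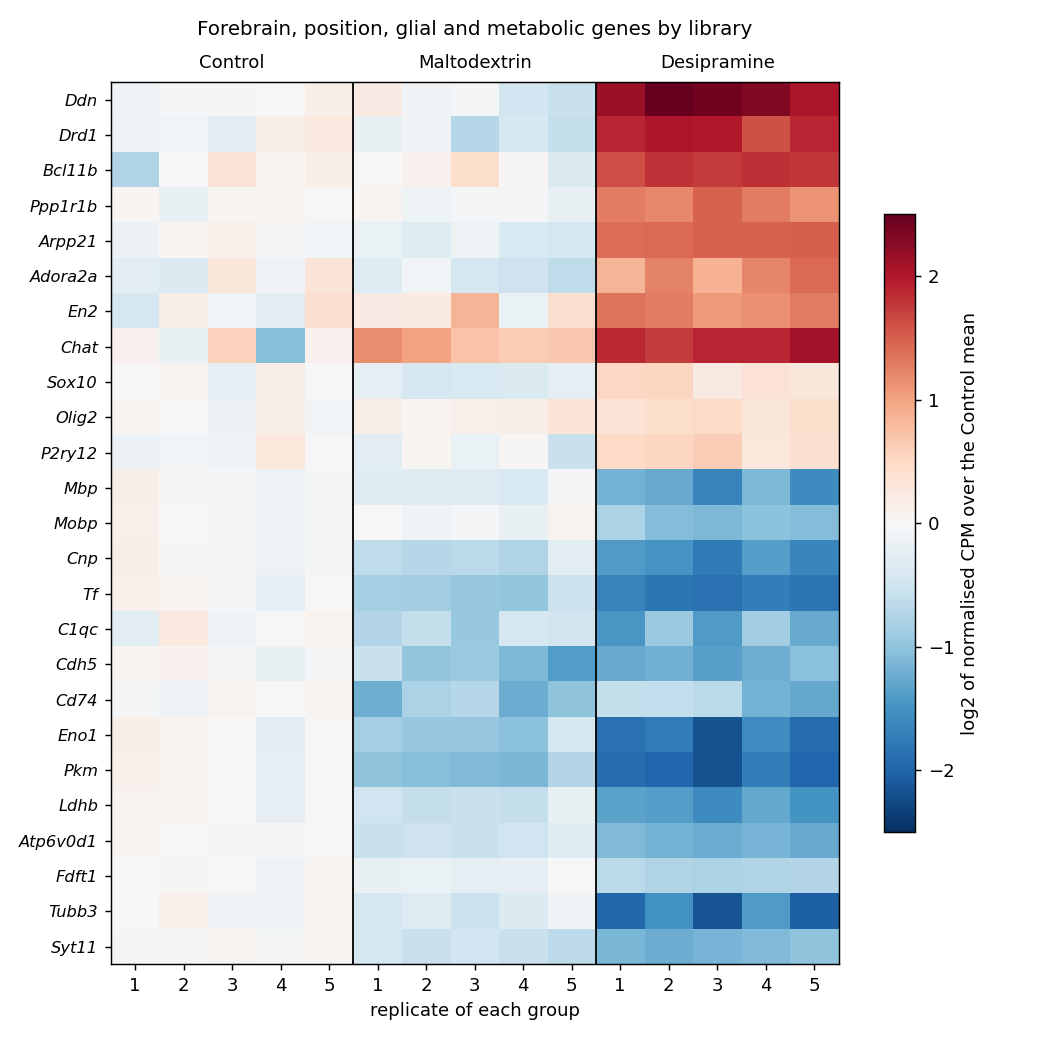
Log2 of each library's TMM-scaled CPM over the Control mean (colour) for 25 genes (rows) in the 5 libraries each of Control, Maltodextrin and Desipramine (columns). Forebrain genes at the top are raised in all 5 Desipramine libraries, and the glycolysis, myelin and tubulin genes below are lowered in all 5, with Maltodextrin between for many of the latter.

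Transcripts of glia fell for some functions and rose for others. The median log2 change against Control was -0.54 for myelin and oligodendrocyte, -0.25 for astrocyte and -0.32 for microglial genes. Against Maltodextrin it was -0.09, -0.05 and -0.03. Maltodextrin itself stood at -0.12, -0.24 and -0.26 against Control. Of 19 myelin and oligodendrocyte genes 7 were higher and 11 lower, and their summed level was 133305 to 160924 CPM in Control and 55215 to 69955 CPM in Desipramine. Mbp, a main myelin protein, fell from 76784 to 94121 CPM in Control to 26299.8 to 38589.9 CPM in Desipramine (-1.34, adjusted p = 1.11e-09). Cnp, Mobp and Mog, which also build myelin, fell by 1.52, 1.02 and 0.80. Tf, the transferrin made by oligodendrocytes, fell from 9344, 8973, 8340.5, 7354 and 8501 CPM to 2671, 2426, 2318, 2566 and 2385 CPM (-1.78, adjusted p = 1.52e-16). The transcription factors of the same cells, Sox10 and Olig2, rose by 0.39 and 0.40, so the list did not move as a block. Astrocyte genes were 5 higher and 9 lower of 17, with Gfap, Aldoc, Glul and Ndrg2 down by 0.87, 1.10, 0.90 and 0.92. Microglial genes were 5 higher and 10 lower of 19. Cx3cr1, the fractalkine receptor, fell from 21.4, 18.03, 19.9, 18.1 and 20.5 CPM to 7.60, 11.96, 7.51, 8.56 and 9.40 CPM (-1.13), complement C1qc fell by 1.17, C1qb by 0.81 and the growth factor receptor Csf1r by 0.55. P2ry12 and Aif1, markers of the same cells, rose by 0.47 and 0.52.

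Vessel genes ran lower. Of 19 endothelial and mural genes 13 were lower and 1 higher. Their median log2 change was -0.50 against Control and -0.23 against Maltodextrin, which itself stood at -0.21 against Control. Their summed level was 496.9 to 512.3 CPM in Control and 395.9 to 416.8 CPM in Desipramine. Cdh5, the adhesion protein of endothelial junctions, fell from 9.89, 10.3, 9.67, 8.36 and 9.26 CPM to 3.94, 4.10, 3.70, 4.07 and 4.58 CPM (-1.21, adjusted p = 2.21e-09). It did not differ from Maltodextrin, with a mean of 4.85 CPM, at the threshold (-0.25, adjusted p = 0.187). The mural genes Rgs5, Tagln and Vtn fell by 0.71, 0.72 and 0.82. Antigen presentation genes were 7 lower and 1 higher of 11. Their median was -0.46 against Control and -0.22 against Maltodextrin, which itself stood at -0.24 against Control. Cd74 fell by 0.85 and the class I genes RT1-A1 and RT1-A2 by 1.20 and 1.01, while their partner B2m rose by 0.37. Interferon response genes were 2 higher and 7 lower of 20, and 11 were not called. That called share, 45%, was below the 59.9% of all genes. Among the lower ones, Irf7, Stat2 and Mx2 fell by 1.14, 0.69 and 0.63. Ttr, the choroid plexus transthyretin, rose from 13.0, 12.4, 10.5, 13.7 and 12.5 CPM to 44.9, 45.7, 31.6, 39.0 and 41.4 CPM (1.71, adjusted p = 2.81e-14). Its mean in Maltodextrin was 42.5 CPM (-0.07, adjusted p = 0.634), and the choroid markers Kl and Folr1 stood at 0.369 and 0.246 CPM at most, before scaling, in the Desipramine libraries. Igf2, from meninges and vessels, rose from 12.4, 10.8, 10.4, 11.9 and 12.8 CPM to 32.0, 35.5, 31.9, 31.8 and 29.1 CPM (1.45, adjusted p = 3.6e-16) and by 1.51 against Maltodextrin.

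All 16 glycolysis genes, a list added after values were seen, were lower, and for each of them the 5 Desipramine libraries all lay below the 5 Control libraries, as they did for 22.9% of all genes. Their median log2 change was -0.75 against Control and -0.34 against Maltodextrin, which itself stood lower than Control by a median of 0.42. Eno1 fell from 3248, 3075, 2950.5, 2416 and 2914 CPM to 797, 869, 642, 989 and 771 CPM (-1.84, adjusted p = 8.73e-13). Pkm, which makes pyruvate, fell from 2773, 2698, 2518, 2132 and 2571 CPM to 679, 642, 565, 767 and 646 CPM (-1.94, adjusted p = 2.7e-14). Ldhb, which interconverts pyruvate and lactate, fell by 1.41. Oxidative phosphorylation genes were 16 lower and 5 higher of 27, with Sdha, Ndufa9 and Sdhc down by 0.71, 0.66 and 0.62 and Cox6c up by 0.65.

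Lysosomal genes fell almost throughout, 19 of 22 against 1 higher. The proton pump subunit Atp6v0d1 stood at 491, 478, 454, 462 and 478 CPM in Control and 219.9, 209, 201, 212 and 198 CPM in Desipramine, with no overlap (-1.18, SE 0.053, adjusted p = 4.57e-18). The protease Ctsb, the activator protein precursor Psap and the protective protein Ctsa fell by 1.00, 0.96 and 0.78. Desipramine is a cationic amphiphilic drug, a kind that gathers in lysosomes. Of 15 listed genes of the phospholipid response to such drugs 9 were lower and 1 higher. That called share, 66.7%, was near the 59.9% of all genes. The median log2 change against Control was -0.39 for lysosomal genes and -0.28 for these 15. Against Maltodextrin it was -0.27 and -0.12. Maltodextrin itself stood at -0.24 and -0.20 against Control. A part of this drug property in these changes was not tested. Sterol synthesis genes were 12 lower and 3 higher of 21: Fdft1 fell by 0.74, and Sqle rose by 0.60. Proteasome genes were 15 lower and 7 higher of 24, with Psmb2 and Psmd2 down by 0.88 and 0.76.

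Genes of RNA handling were more often higher than lower. Ribosomal protein genes were 17 higher and 8 lower of 33, and splicing factors 11 higher and 4 lower of 19. The median log2 change of ribosomal protein genes was 0.22 against Control and 0.05 against Maltodextrin. Maltodextrin itself stood at 0.22 against Control for these genes. Splicing factors had medians of 0.40 against Control and 0.31 against Maltodextrin. Rpl30 went from 169, 172, 176, 179.6 and 185 CPM to 465, 433, 479, 389 and 430.1 CPM (1.32, adjusted p = 3.76e-19, the smallest among the genes named by the rule). Rpl39, Rpl11 and Rpl23 rose by 1.02, 0.92 and 0.85. The splicing factors Srsf11, Srsf1 and Tra2a rose by 0.81, 0.73 and 0.85, and Srsf7 fell by 1.29. Clock genes were 8 higher and 4 lower of 16, with Npas2, Dbp and Nr1d2 up by 0.98, 0.62 and 0.61. Heat shock genes were split, 6 higher and 8 lower of 20, and the chaperone Hspa8 fell by 0.84. Among the remaining lists, arrestins and G protein regulators were 6 higher and 6 lower of 15, ubiquitin-conjugating enzymes 10 and 6 of 18, and genes of the unfolded protein response 4 and 5 of 20. Markers of oligodendrocyte precursors were 3 higher and 3 lower of 10, those of fibroblasts and meninges 5 and 1 of 10, of choroid plexus and ependyma 4 and 0 of 10, and of blood 3 and 0 of 6. Cerebellar markers were 7 higher and 2 lower of 13, and those of thalamus, midbrain roof and hypothalamus 3 and 0 of 6. Median log2 changes against Maltodextrin were -0.05 for cerebellar markers, -0.03 for choroid plexus and ependyma and -0.05 for ubiquitin-conjugating enzymes. Against Control these medians were 0.36, 0.66 and 0.21. For fibroblasts and meninges, blood, and thalamus, midbrain roof and hypothalamus the medians against Maltodextrin were 0.24, 0.15 and 0.08.

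**Figure D5:**
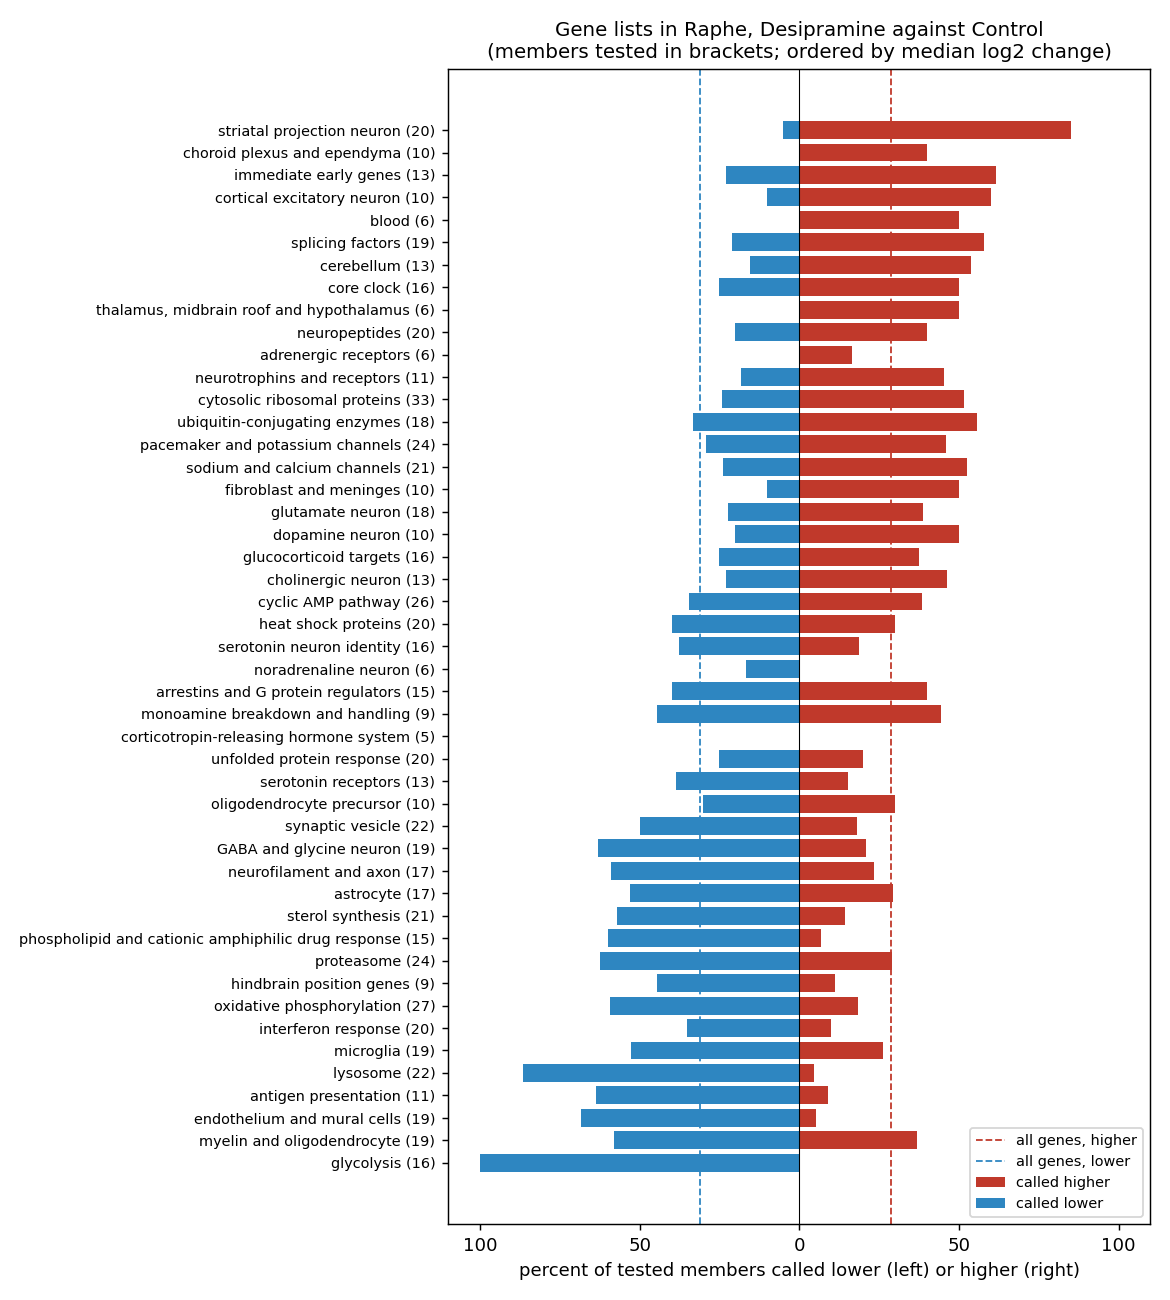
Percent of the tested members of each gene list called higher (red, to the right) or lower (blue, to the left) in Desipramine against Control, with the number of members tested in brackets and dashed lines at the 28.8% and 31.1% of all genes. Striatal genes reach farthest to the right (17 of 20) and glycolysis (16 of 16) and lysosome (19 of 22) genes farthest to the left.

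The largest changes among well-expressed genes without overlap added few pathways to these. Among those on the higher side were Rbm24, Ddn, Drd1, Bcl11b, Ttr, Efnb3, Arglu1, Sipa1l3, Kcnmb4, Crym and Gda. Rbm24, an RNA-binding protein, owed its place to a single library: it stood at 1.73, 2.89, 2.24, 2.82 and 2.23 CPM in Control and 35.5, 3.87, 4.82, 5.15 and 5.93 CPM in Desipramine, and without Desipramine replicate 1 its change of 2.29 became 1.07 and lost its call (adjusted p = 0.0779). The other genes named here were even across libraries. Arglu1, a splicing regulator, rose from 25.4, 23.5, 23.7, 23.7 and 22.2 CPM to 73.4, 62.8, 79.9, 67.7 and 73.3 CPM (1.59), the ephrin Efnb3 rose by 1.61, and Kcnmb4, a subunit of large-conductance potassium channels, by 1.53. Crym, a thyroid hormone binding protein, Gda and Sipa1l3 rose by 1.50, 1.49 and 1.54.

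On the lower side were Morn5, Moap1, Pfn2, Kctd21, Max, C1ql2, Prss22, Tppp, Pkm, Eno1, Tubb3 and Tf. Morn5 varied widely, from 223, 411, 237, 504 and 359 CPM in Control to 37.4, 57.7, 40.6, 67.2 and 44.9 CPM in Desipramine (-2.81, SE 0.34). Moap1 and Pfn2 fell by 2.71 and 2.52, and their high and low Control libraries were those of Morn5: replicate 4 was the highest and replicate 1 the lowest for all 3 genes. Kctd21 was steadier, at 15.6, 17.0, 17.1, 16.4 and 13.1 CPM and 2.88, 2.23, 3.14, 3.41 and 3.003 CPM (-2.41, adjusted p = 5.53e-15). Max, the partner of the Myc factors, and the secreted C1ql2 fell by 2.37 and 2.01, Prss22 by 1.98 and Tppp, a microtubule protein of oligodendrocytes, by 1.97. The genes with the smallest p added Cbx3 and Elmod1 on the higher side (1.28 and 0.99). Those added on the lower side included Sh3gl2 and Napa, proteins of vesicle traffic, which fell by 1.18 and 1.34.

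Ipp and Pyy, 2 genes outside the naming rule, were picked after their values were seen because they lie farthest from the rest. Ipp had the largest fitted increase, 5.46, and this came from 1 library: Desipramine replicate 2 held 5913 CPM and the other Desipramine libraries 17.6 to 23.2 CPM, against 22.8 to 29.2 CPM in Control. Without that library Ipp was lower in Desipramine, by 0.37 on the log2 scale (adjusted p = 0.00102). Pyy, a gut and brainstem peptide, had 0 counts in all 5 Desipramine libraries, 0.345 to 0.761 CPM in Control and 3.71 to 5.60 CPM in Maltodextrin. A level of 3 counts over the 5 Desipramine libraries puts it at least 9.77-fold lower than in Control and at least 93.8-fold lower than in Maltodextrin, for counting error only.

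Against Maltodextrin, further named genes that were called against Control missed the threshold. Of those lower than Control, the differences from Maltodextrin were -0.09 for Aldh2, -0.05 for Gata3, -0.14 for Spr, -0.40 for Htr7, -0.33 for Btg2, -0.08 for Dusp1, 0.13 for Cd74, -0.03 for Csf1r and -0.13 for Mx2. Of those higher than Control, they were -0.08 for B2m, 0.58 for Adra1d, 0.39 for Slc22a3, 0.66 for Slc18a3, 0.16 for Nr3c1, 0.15 for Fkbp5 and 0.00 for Sqle. Their adjusted p ran from 0.0515 (Adra1d) to 0.972 (Sqle). Slc17a7 turned from lower to higher (0.28, adjusted p = 0.0198). Fev, Slc18a2 and Slc17a8, not called against Control, were called higher than Maltodextrin by 0.57, 0.29 and 0.38.

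Set against the other drugs in the same region, Desipramine differed from FT at 4906 genes (40.2%) and from Bupropion at 6421 (52.6%). FT and Bupropion were dosed differently from Desipramine, and these comparisons share the Desipramine libraries. Drd1 and Ddn were higher in Desipramine than in either: Drd1 had a mean of 10.6 CPM in Desipramine, 3.91 CPM in FT and 1.59 CPM in Bupropion. Ddn had means of 22.0, 15.0 and 6.21 CPM, and Bcl11b in FT (8.88 CPM) did not differ from Desipramine at the threshold (0.27, adjusted p = 0.199). Tph2 was higher in Desipramine than in FT (by 0.16) and than in Bupropion (by 0.60). Morn5 was lower than in FT by 1.84 and than in Bupropion by 2.86.

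The effect of Desipramine against Control was also compared with that in LConly, the noradrenaline cell group where the target of the drug is made, by a test of the difference over 20 libraries. In LConly alone 54.4% of 12505 genes were called, and the effects differed between the regions at 4868 of 12132 genes (40.1%). Among the monoamine genes, Ddc, Slc18a2 and Maoa fell in LConly with a difference from Raphe that passed the test. Ddc changed by 0.08 in Raphe and -0.88 in LConly (difference 0.96, adjusted p = 8.31e-10). Slc18a2 changed by 0.04 and -0.72 (difference 0.76, adjusted p = 3.27e-08) and Maoa by -0.24 and -0.69 (difference 0.45, adjusted p = 8.82e-05). Slc6a4 rose in LConly, by 1.11, and not in Raphe (difference -1.01, adjusted p = 0.0059). Slc6a2 fell in LConly by 1.66. It was below the filter among the Raphe libraries and entered this fit through its LConly counts. Its fitted difference of 1.50 rests on the few counts it had in Raphe and is not read as a result. Ttr changed in opposite directions, 1.71 in Raphe and -0.997 in LConly (difference 2.70, adjusted p = 1.45e-14). Htr1a fell in both, by 1.43 and 1.27, with a difference of -0.18 (SE 0.23) that did not pass the test (adjusted p = 0.566). For Tph2 (0.77), Maob (0.2), Bdnf (0.582), Fkbp5 (0.847), Fos (0.0879), Fev (0.355), Adra2a (0.317) and Adra1b (0.154) the adjusted p of the difference, given in brackets, also missed the threshold. Of the forebrain genes, Drd1 rose more in Raphe (difference 1.14), as did Bcl11b (0.52), while Ddn rose in LConly too, by 2.60, with no difference at the threshold (adjusted p = 0.106). Morn5, Moap1, Pfn2 and C1ql2 fell in LConly by 3.66, 3.21, 2.95 and 2.25.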

How the data were processed

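The authors deposited raw counts of reads for 17337 gene symbols, in a table whose 300 columns all matched labelled samples. The authors made libraries with a stranded total RNA kit, per the labels' protocols, and STAR, HTSeq, FastQC and rn6 are named in the submitters' processing notes. Tool versions and settings were not found in the labels. The 30 Raphe libraries of 6 treatments entered 1 fit of edgeR 4.0.16 under R 4.3.3 (filterByExpr, TMM factors, quasi-likelihood F test), and adjusted p-values cover all 12201 tested genes. The 20 libraries of the LConly comparison were fitted with the treatment replicate as a covariate. SDs between libraries were small, with medians of 0.12 (Desipramine) and 0.10 (Control) on the log2 scale. None of the 20 library pairs within Desipramine or Control was a repeat (lowest chi-square per degree of freedom 2.49). The members and gene lists were chosen with earlier results of these data known. Named genes were the 12 highest and 12 lowest changes among called genes above an average log2 CPM of 2 with an ordinary symbol and no overlap, the 6 smallest p per direction, 15 fixed genes and up to 4 members per list. Several list members, 2 lists (striatal, glycolysis), Ipp, Pyy, Dlx1, Lhx6 and Fezf2 were chosen after values were seen. Some genes that meet the rule are not reported here. The method was tested on simulated data. The alternatives were RLE factors, other filters, DESeq2 1.42.0, a replicate block, pooled controls, leaving out single libraries and, added after seeing the data, total counts without TMM.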

Additional observations from a re-analysis of the deposited data

Results flagged for a closer look

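A check of each group of 5 libraries for a value far from the rest marked 15 of the 348 groups examined, 4.31%, and chance marks about 1 in 20. For 2 genes, Ipp and Rbm24, the direction or the call changed without the far library. Ipp stood at 5913 CPM in Desipramine replicate 2 and at 23.2 CPM in the next highest Desipramine library. Rbm24 stood at 35.5 CPM in Desipramine replicate 1 and at 5.93 CPM in the next. Leaving out the far library changed neither direction nor call at any of the other 13 genes. In Desipramine they were Slc32a1 at 112.4 CPM in replicate 2 (next 84.4), Csf1r at 52.9 CPM in replicate 2 (next 60.9), Ctsb at 533.9 CPM in replicate 1 (next 484.1), Lhx6 at 1.74 CPM in replicate 5 (next 1.29) and Slc17a7 at 17.9 CPM in replicate 3 (next 22.6). In Control replicate 1, Jun was lowest at 19.5 CPM (next 23.2), Fos at 4.26 CPM (next 5.30) and B2m at 605.6 CPM (next 638.7). In Control replicate 4, Adra1b was highest at 2.90 CPM (next 2.51) and Tppp at 117.4 CPM (next 104.6), while Fdft1 was lowest at 314.8 CPM (next 343.1) and Rpl23 at 537.4 CPM (next 583.2). Ppp1r1b was lowest in Control replicate 2 at 12.3 CPM (next 14.1).

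The effect of Desipramine differed between Raphe and LConly at 4868 genes. Among the genes followed in both regions, the difference (Raphe minus LConly, log2) was positive for Ttr (2.70), Slc6a2 (1.50, with few counts in Raphe and not read as a result), Drd1 (1.14), Ddc (0.96), Morn5 (0.87), Slc18a2 (0.76), Bcl11b (0.52) and Maoa (0.45). It was negative for Kctd21 (-1.09, adjusted p = 0.000169), Slc6a4 (-1.01) and Max (-0.79, adjusted p = 0.0375).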

How the results depend on the processing

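The number of genes called against Control, 7304, ran from 6407 to 7716 over all alternatives, and from 6890 to 7229 when 1 library was left out. The counts against Maltodextrin (4639 to 4977), FT (4397 to 5398) and Bupropion (5919 to 6370), of Maltodextrin against Control (3572 to 3966) and of the difference from LConly (4364 to 4764) also stayed within 1.5 times their value when 1 library or treatment replicate was left out. Of 174 genes followed, 149 kept their direction and call under all alternatives planned. With Control and Maltodextrin pooled, Tph2 (0.0642), Maob (0.0218), Th (0.0219), Tac1 (-0.0737) and Slc17a8 (0.0924) changed direction, none of them called, Slc6a4 (0.31, adjusted p = 0.00206) and Slc18a2 (0.16, adjusted p = 0.0382) gained a call, and 155 of 174 genes kept direction and call. On total counts without TMM, 151 did, 17 changed their call and Tph2 (0.0160), Maob (0.10), Maoa (0.0427), Th (0.0695), Slc17a8 (0.14) and Dusp1 (0.0465) changed direction, none called. The cause was not tested beyond the upward shift of all genes on that scale. Slc6a4, not called in the fit reported, was called by DESeq2 (0.11, adjusted p = 0.0393) and without Desipramine replicate 4 or Control replicate 1, 2 or 3, and Th lost its call without Desipramine replicate 3 or Control replicate 2. Fev, not called in any fit with a library left out, ranged there from -0.0442 to 0.155 and was below 0 without Desipramine replicate 2, 4 or 5. Ipp ranged from -0.37, without Desipramine replicate 2, to 5.78, and was 3.34 with the replicate block. Replicate numbers do not mark shared animals in the labels: same-numbered Desipramine and Control libraries correlated in their deviations at -0.04 to 0.18, and 2 of 5 correlated best with their own number. With the replicate number as a block, 7451 genes were called against Control, 5285 against Maltodextrin, 5124 against FT, 6604 against Bupropion and 4353 for Maltodextrin against Control. The LConly difference was fitted with another block, the treatment replicate, which links both regions of 1 replicate of a treatment. Without that block it gave 4590 genes. Depth limits genes near 1 CPM, such as the Hox genes, Lhx6, Slc6a2 and Pyy.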
